A study of Homo sapiens with 6 samples.

Results

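The genes described here are long noncoding RNAs named as intergenic, antisense, intronic or host transcripts, measured in Huh7 cells after knockdown of SETD5. They were chosen by symbol alone: symbols beginning with LINC and a digit or with SNHG, symbols ending in -AS or -IT and a digit, symbols of the form MIR, digits and HG, and MALAT1, NEAT1, GAS5, H19 and MEG3. Of the 14200 genes of the table, 488 had such a symbol, and the 328 that averaged 1 CPM or more are the members (CPM is the gene's reads scaled to a common library total, averaged over the 6 libraries). The other 160 lay below that level. H19 and MEG3 were not among the genes of the table and are not analysed here. By class there were 202 antisense RNAs, 98 intergenic RNAs, 18 snoRNA hosts (the SNHG genes and GAS5), 5 microRNA hosts, 3 intronic RNAs, and the nuclear RNAs MALAT1 and NEAT1. Just inside the level limit stood DARS-AS1 and LINC00926, each at 1.02 CPM, and LINC01559 at 1.03 CPM. Just outside it stood STXBP5-AS1 at 0.994, CIRBP-AS1 at 0.993 and PSMD6-AS2 at 0.985 CPM.

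Huh7 is an established line of human hepatocellular carcinoma cells. Messenger RNA selected by its poly(A) tail was sequenced with a stranded kit from 3 SETD5 knockdown libraries and 3 control libraries. Knockdown was by siRNA delivered with a lipid reagent, and the labels name neither the siRNA nor what the control cells received. Nothing in the labels ties the 3 libraries of a group to separate cultures, so a p-value here reflects the scatter of these libraries alone, and that scatter can be technical. SETD5, a chromatin protein with a SET domain, stood at 136, 140 and 138 CPM in the knockdown libraries, against 212, 210 and 202 CPM in the control libraries. Its log2 fold change was -0.59 (SE 0.032, limma adjusted p = 1.15e-17). The exact two-sided permutation p was 0.1, which is the smallest that 3 libraries against 3 allow.

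Libraries held 14038447 to 17095417 reads, so 3 reads correspond to 0.176 to 0.214 CPM. Hepatocyte markers were all present (8 of 8), summing to 37950 to 38170 CPM after knockdown and 41220 to 42110 CPM in controls. Of the immune markers 4 of 6 were in the table, summing to 629 to 707 CPM after knockdown and 261 to 287 CPM in controls, almost all of it LYZ (mean 649 and 260 CPM), while PTPRC was at 1.59 and 1.13 CPM. Of the stellate or fibroblast markers 3 of 5 were in the table, summing to 309 to 318 and 167 to 176 CPM, mostly COL1A2. Of the cholangiocyte markers 3 of 4 were in the table (256 to 264 and 229 to 249 CPM), and of the endothelial markers 2 of 4 (0.614 to 0.938 and 0.786 to 1.35 CPM). The part of these shifts in the results below was not tested. In bulk libraries, fewer cells with an RNA and less of it per cell cannot be told apart.

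Long noncoding RNAs are transcripts without a long conserved reading frame. Antisense and intergenic RNAs are often made at low level from promoters shared with a coding gene, and some act on the chromatin of their neighbours. Host transcripts carry small RNAs in their introns or exons: snoRNAs, which guide the modification of ribosomal RNA, are released from spliced introns, and microRNAs are cut from the host as hairpins. Many spliced snoRNA host RNAs begin with a pyrimidine tract at the cap, as the messages of ribosomal proteins do, and are degraded by nonsense-mediated decay. MALAT1 sits in nuclear speckles and NEAT1 builds the paraspeckles.

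The microRNAs carried by the hosts are shown first, since the hosts that changed are known chiefly through them. Sequences are mature strands from RefSeq (GRCh38.p14), 5′ to 3′, with the seed (bases 2 to 8) in capitals. The libraries measured the hosts and not the mature microRNAs.
hsa-miR-210-3p in MIR210HG, chr11:568112-568133 on the minus strand: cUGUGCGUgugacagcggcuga
hsa-miR-22-3p in MIR22HG, chr17:1713914-1713935 on the minus strand: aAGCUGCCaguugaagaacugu
hsa-miR-600 in MIR600HG, chr9:123111561-123111583 on the minus strand: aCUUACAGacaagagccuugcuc
The MIR17HG cluster holds pairs of microRNAs that share a seed, AAAGUGC in the upper pair below and GUGCAAA in the lower one, all on the plus strand.
hsa-miR-17-5p, chr13:91350618-91350640: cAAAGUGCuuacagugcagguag
hsa-miR-20a-5p, chr13:91351072-91351094: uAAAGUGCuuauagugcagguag
hsa-miR-19a-3p, chr13:91350939-91350961: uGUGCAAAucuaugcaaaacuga
hsa-miR-19b-3p, chr13:91351245-91351267: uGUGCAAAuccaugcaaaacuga

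For the snoRNA hosts the start of the RNA is shown, because that is where the pyrimidine tract would lie. Each window runs from 10 bases before the annotated RefSeq start to 20 bases from it on, on the strand of the gene. Capitals mark a tract, defined as a C followed by at least 4 further C or T and beginning within 5 bases of the start. Shown are the hosts that passed the test below and may be printed, the lower ones before the higher ones.
SNHG3, chr1:28505933-28505962, plus strand: gtgagtttctgattctctaactgcgcatgc
SNHG8, chr4:118278752-118278781, plus strand: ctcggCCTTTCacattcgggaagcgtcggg
SNHG21, chr15:82750554-82750583, plus strand: cggaaagagagtggatttactaggaaggtg
SNHG19, chr16:2155339-2155368, minus strand: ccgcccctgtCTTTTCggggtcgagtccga
SNHG12, chr1:28581854-28581883, minus strand: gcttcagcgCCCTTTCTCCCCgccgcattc
SNHG7, chr9:136728165-136728194, minus strand: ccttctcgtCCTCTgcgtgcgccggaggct
SNHG1, chr11:62855866-62855895, minus strand: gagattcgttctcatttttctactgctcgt
GAS5, chr1:173869026-173869055, minus strand: tcatgaattcagatgtgtttattttggagc
SNHG16, chr17:76557754-76557783, plus strand: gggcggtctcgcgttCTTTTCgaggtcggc
SNHG17, chr20:38435309-38435338, minus strand: gtgtggcctcagtCCTTCgccgtccctcgc
A tract by this definition stood at 8 of the 15 snoRNA hosts whose RefSeq window was used. It stood at 50 of the 257 members with a window (19.5%) and at 7408 of 35116 RefSeq promoters (21.1%). The 3 snoRNA hosts left out of the 15 lay on a chromosome not printed here or had no unique RefSeq window. The members with a window and the promoters were not filtered in these ways. Only the gene's own strand was searched, and a missing match says no more than that these letters are not in this window.

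After SETD5 knockdown the summed level of the long noncoding RNAs was close to the control, and single members differed in both directions, more of them lower than higher. Of the 328 members, 34 were higher and 70 were lower at a limma adjusted p under 0.05 over all 12865 tested genes. That is 31.7% of the members, against 52.1% of all tested genes, of which 25.7% were higher and 26.5% lower. Among the members the split was 10.4% higher and 21.3% lower. Libraries of the groups did not overlap for 111 members (33.8%), against 57.3% of all tested genes. The median log2 fold change was -0.09 over the members and -0.001 over all tested genes, and 66.2% of members and 50.2% of tested genes had a negative value. Changes were mostly small: the median absolute log2 fold change of called genes was 0.36 for members and 0.27 for all tested genes. Past 2-fold on the log2(CPM + 1) scale were LINC01279, higher, and LINC00870, lower. By the ratio of mean CPM 2 members were at least 2-fold higher, LINC01279 and LINC00987 (2.04), and 5 at least 2-fold lower: LINC00870 (0.376), MIR210HG (0.424), HNF4A-AS1 (0.430), SCOC-AS1 (0.487) and ZBED5-AS1 (0.490). The members summed to 4978 ± 96.6 CPM after knockdown and 5035 ± 45.4 CPM in controls (SD, n = 3 each), which is 0.498% and 0.504% of all CPM.

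**Figure D1:**
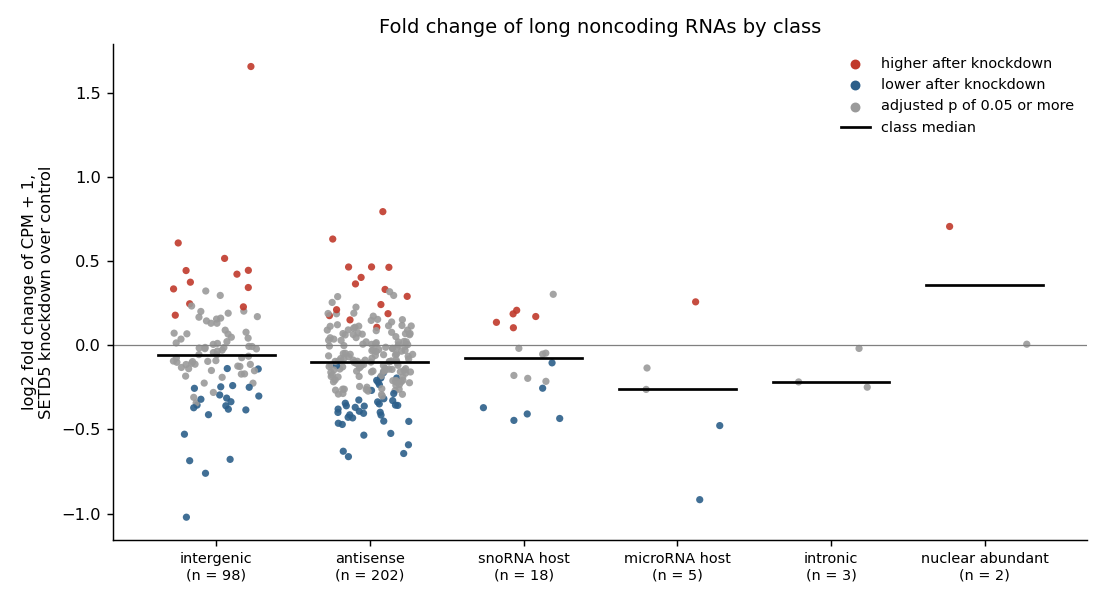
Log2 fold change of CPM + 1, SETD5 knockdown over control, for each of the 328 long noncoding RNAs by class; points are genes, coloured by the limma call at an adjusted p under 0.05, and bars are class medians. Antisense RNAs hold 15 higher and 40 lower members, intergenic RNAs 12 and 22, and LINC01279 stands alone at 1.65.

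Most members lie at low level, where fewer genes of any kind are called, so the shares were set beside genes of the same level. The median member had 3.50 CPM. Between 1 and 2 CPM 15.5% of 97 members were called, against 23.5% of all genes at that level; between 2 and 5 CPM 27.5% against 35.0%; and between 5 and 20 CPM 38.8% against 45.7%. Between 20 and 100 CPM the share was 63.0% of 27 members, against 57.6% of all genes, and from 100 CPM on 9 of 10 members were called, against 68.6%. Under 20 CPM more members were lower than higher: 4 were higher and 11 lower in the lowest range, 7 and 23 in the next, and 9 and 24 in the third. Over all genes in these ranges the counts were 112 and 98, 207 and 240, and 647 and 723. From 20 CPM on members split into 8 higher and 9 lower and then 6 and 3.

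**Figure D2:**
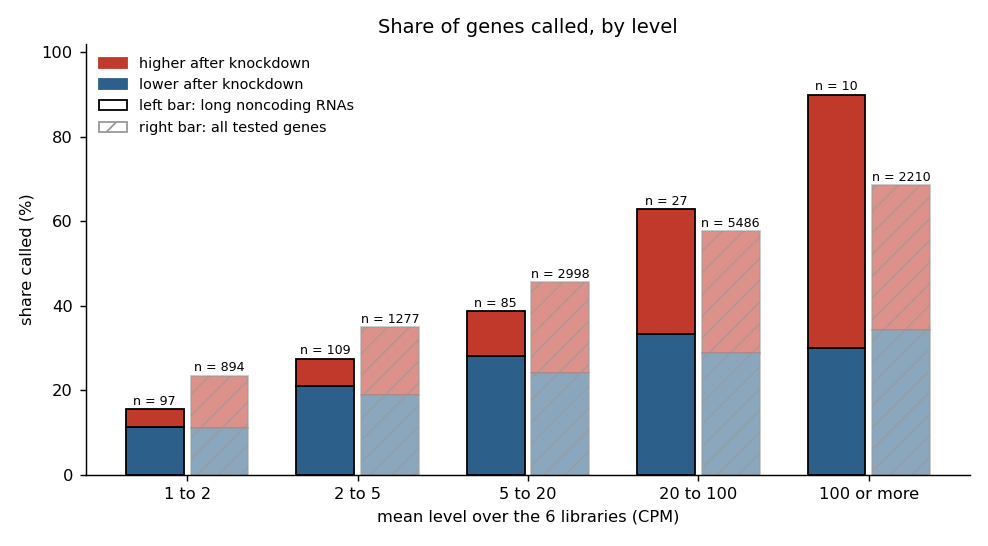
Share of genes called at a limma adjusted p under 0.05 by mean level in CPM; the left bar of each pair is the long noncoding RNAs and the right bar all tested genes, with higher calls stacked on lower calls. The share of members called runs from 15.5% at 1 to 2 CPM to 90% at 100 CPM or more.

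The nuclear RNAs did not move together. MALAT1, which gathers in nuclear speckles with splicing factors, stood at 204, 166 and 189 CPM after knockdown, against 106, 114 and 120 CPM in controls. Every knockdown library was above every control library, with a log2 fold change of 0.71 (SE 0.047, limma adjusted p = 3.42e-15) and a ratio of 1.64. NEAT1, the scaffold of paraspeckles, stood at 328, 257 and 344 CPM after knockdown, against 280, 318 and 321 CPM in controls. The libraries overlapped and NEAT1 was not called (log2 fold change 0.01, 95% interval -0.11 to 0.12, limma adjusted p = 0.934). One library decided this: without knockdown replicate 2, its lowest library, NEAT1 was at 0.14 with an adjusted p of 0.00296 in limma. MALAT1 ends in a triple helix in place of a poly(A) tail, and NEAT1 has a polyadenylated short form and a long form without a tail. The libraries were selected by poly(A), so these values hold for the RNA that was captured. Of 19 tested paraspeckle proteins, 10 were higher, 2 were lower (63.2%, against 52.1% of all tested genes), and the median log2 fold change was 0.07. NONO, which binds NEAT1 in the paraspeckle core, was at 426 CPM after knockdown and 341 CPM in controls. SMARCA4, a remodelling ATPase also found there, was at 274 and 220 CPM, and FAM98A fell to 38.2 CPM, against 79.0 CPM in controls. HNRNPK, with the highest level of the list, was at 1120 and 1077 CPM and not called.

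**Figure D3:**
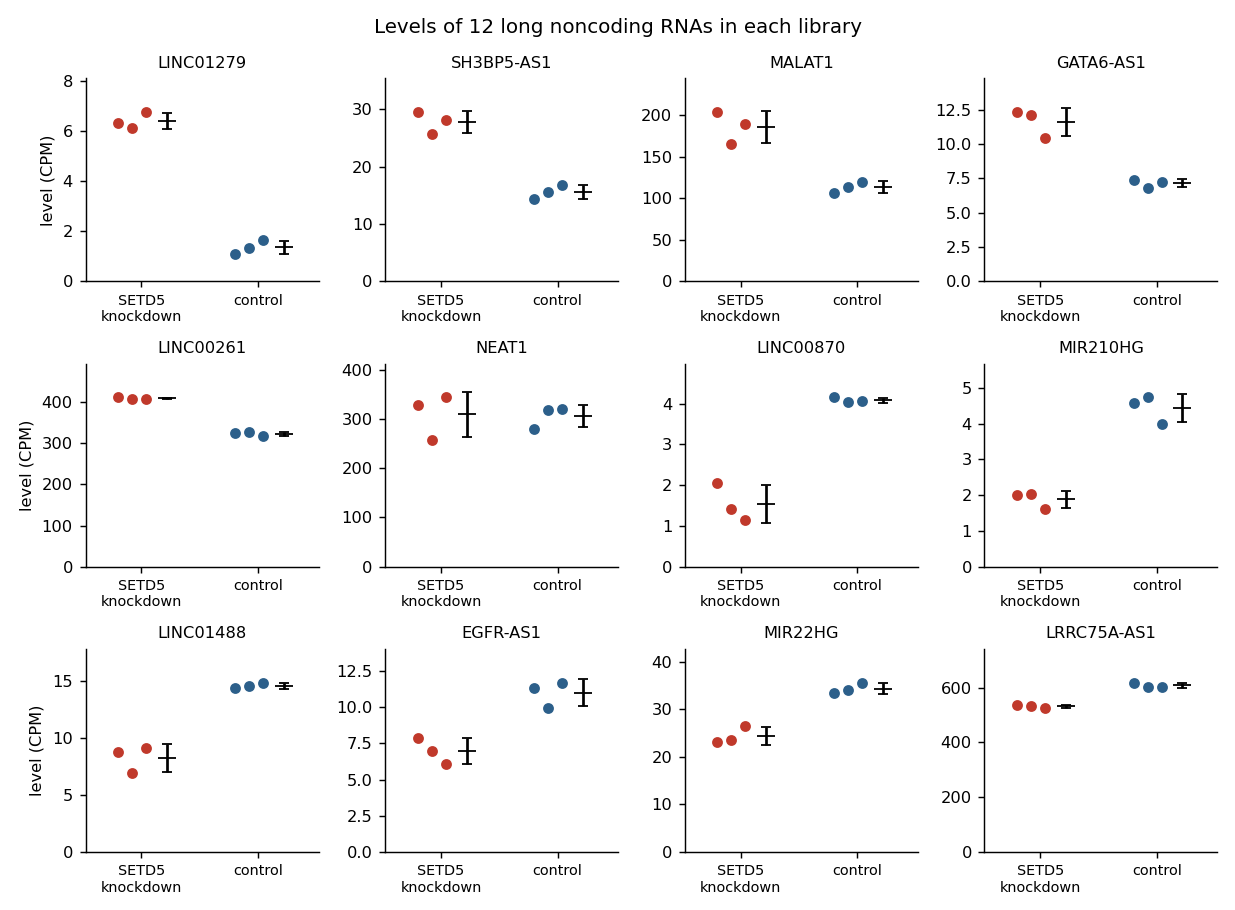
Level in CPM of 12 members in each library, SETD5 knockdown on the left and control on the right of each panel; points are libraries, and the bar beside them is the mean with its SD (n = 3). In 11 panels the groups do not overlap, while NEAT1 libraries overlap.

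Among the microRNA hosts, MIR210HG and MIR22HG fell and MIR600HG rose. These are 3 of 5 hosts (60%), against 52.1% of all tested genes. MIR210HG carries miR-210, the microRNA best known for its induction by HIF in low oxygen. It stood at 2.00, 2.03 and 1.61 CPM after knockdown, against 4.57, 4.74 and 4.0 CPM in controls. No library overlapped, and the log2 fold change was -0.92 (SE 0.126, limma adjusted p = 1.40e-07). MIR22HG, a stress-responsive RNA whose exon holds miR-22, stood at 23.1, 23.6 and 26.5 CPM after knockdown, against 33.3, 33.9 and 35.6 CPM in controls. Its libraries did not overlap either, with a log2 fold change of -0.48 (SE 0.060, limma adjusted p = 2.25e-08). MIR600HG stood at 22.1, 20.7 and 19.3 CPM after knockdown, against 17.5, 17.7 and 16.3 CPM in controls. All knockdown libraries were above the controls, at a log2 fold change of 0.26 (SE 0.070, limma adjusted p = 0.00237), but its exons share bases with STRBP on the same strand. MIR17HG, the precursor of the MIR17 to MIR92A1 cluster, a MYC target that drives proliferation, stood at 8.0, 4.79 and 6.76 CPM after knockdown, against 7.96, 8.15 and 7.50 CPM in controls. The libraries overlapped, and at a log2 fold change of -0.26 it missed the threshold (limma adjusted p = 0.0553). Without knockdown replicate 1 it was at -0.40 with a limma adjusted p of 0.00709 and without knockdown replicate 3 at -0.30 with 0.0473, while without replicate 2 it was at -0.09. MIR503HG, host of miR-503 on the X chromosome, averaged 1.00 CPM after knockdown and 1.2 CPM in controls and was not called. The class summed to 54.5 ± 2.19 CPM after knockdown and 64.9 ± 0.715 CPM in controls (SD, n = 3 each), a ratio of 0.839, or 0.982 without MIR22HG.

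Of 16 tested genes of microRNA processing, 8 were higher and none lower in limma (50%, against 52.1% of all tested genes), with a median log2 fold change of 0.12. At an unadjusted p under 0.05 in limma 9 were higher and 0 lower, and voom called the same numbers. AGO4 and AGO2, which load microRNAs, were at 26.1 and 18.1 CPM after knockdown, against 20.3 and 14.1 CPM in controls. TNRC6A, the silencing partner of the Argonautes, was at 89.9 CPM after knockdown and 70.9 CPM in controls. DDX5, the helicase with the highest level of the list, was at 581 and 580 CPM and not called.

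The snoRNA hosts split, with 5 of 18 higher, 6 lower and 7 not called, and a median log2 fold change of -0.08. The share called was 61.1%, against 52.1% of all tested genes. Hosts ran from 1.90 to 143 CPM, with a median of 23.4 CPM. Of all genes, 23.5% were called between 1 and 2 CPM, 57.6% between 20 and 100 CPM and 68.6% from 100 CPM on. No share was matched to the levels of the class. SNHG3 and SNHG8 had the lowest log2 fold changes of CPM + 1, while the CPM ratio was lowest for SNHG21 at 0.693, followed by SNHG3 at 0.721, SNHG19 at 0.732 and SNHG8 at 0.735. SNHG3, host of the U17 snoRNAs, stood at 15.3, 14.2 and 15.7 CPM after knockdown, against 20.6, 22.1 and 19.9 CPM in controls. The groups did not overlap (log2 fold change -0.45, SE 0.071, limma adjusted p = 2.09e-06), and its exons share bases with RCC1 on the same strand, which went the other way at a log2 fold change of 0.14. SNHG8, host of an H/ACA snoRNA, stood at 36.6, 33.4 and 32.8 CPM after knockdown, against 46.1, 46.3 and 47.4 CPM in controls. It was lower in every knockdown library, at a log2 fold change of -0.43 (SE 0.051, limma adjusted p = 5.98e-09). SNHG21, SNHG19, SNHG12 and SNHG7 were lower as well, at log2 fold changes of -0.41, -0.37, -0.26 and -0.10.

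The hosts that rose were GAS5, SNHG16, SNHG17, SNHG1 and SNHG6. GAS5, which builds up in growth-arrested cells and carries many box C/D snoRNAs, stood at 143, 146 and 150 CPM after knockdown, against 127, 136 and 127 CPM in controls. Its knockdown libraries lay above all controls, with a log2 fold change of 0.17 (SE 0.035, limma adjusted p = 8.64e-05). SNHG16 was at 103, 99.1 and 92.9 CPM after knockdown, against 86.0, 85.8 and 86.7 CPM in controls, and SNHG17 was at a log2 fold change of 0.21. SNHG1, a host of box C/D snoRNAs, was at 0.14 and SNHG6 at 0.10. All 5 rises were under 1.2-fold. The class summed to 841 ± 16.4 CPM after knockdown and 822 ± 23.1 CPM in controls (SD, n = 3 each), a ratio of 1.02. By its symbol LRRC75A-AS1, a snoRNA host that RefSeq names SNHG29, is counted with the antisense RNAs and not in this sum. It was lower, at 531 CPM after knockdown and 608 CPM in controls, and with it the sum would be lower after knockdown. Of the 8 hosts with a start tract 2 were higher and 4 lower, and of the 7 without it 2 were higher and 2 lower, which was not tested.

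Several of these calls rested on single libraries. SNHG6 lost its call without knockdown replicates 1 or 3 or control replicates 1 or 3 (limma adjusted p = 0.064, 0.32, 0.16 and 0.0599), and fell to 0.05 without knockdown replicate 3. SNHG12 lost it without knockdown replicate 2 (log2 fold change -0.15, limma adjusted p = 0.223) or control replicate 3 (-0.16, 0.209), SNHG19 without knockdown replicate 1 (-0.27, 0.0919) or control replicate 2 (-0.27, 0.0947), and SNHG7 without knockdown replicate 1 (-0.08, 0.13) or control replicate 3 (-0.09, 0.0828). Without a mean-variance trend SNHG1, SNHG6, SNHG7 and SNHG12 also missed the threshold (limma adjusted p = 0.0661, 0.2, 0.0778 and 0.148).

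**Figure D4:**
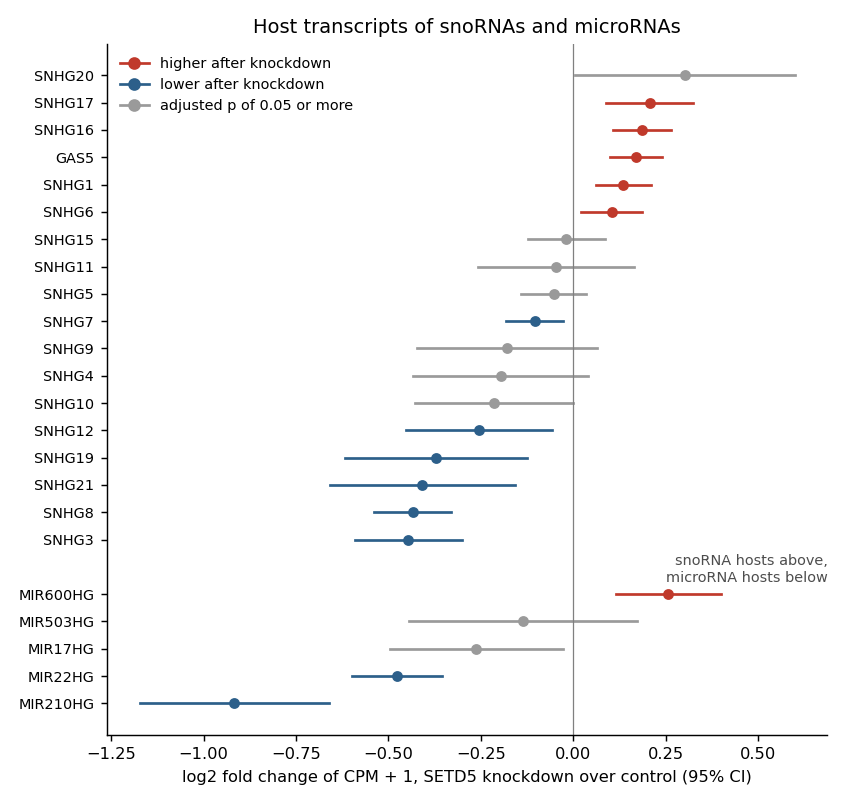
Log2 fold change of CPM + 1 with its 95% interval, SETD5 knockdown over control, for the 18 snoRNA hosts above and the 5 microRNA hosts below, coloured by the limma call. SNHG3 and SNHG8 lie at -0.45 and -0.43 and MIR210HG at -0.92, while the 5 snoRNA hosts called higher lie between 0.10 and 0.21.

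The proteins that act on snoRNAs and on the spliced hosts were read from their own lists. Of 16 tested box C/D and H/ACA snoRNP proteins, 1 was higher (ZNHIT3, an assembly factor, at 32.6 CPM after knockdown and 25.3 CPM in controls) and 2 were lower (NHP2, an H/ACA core protein, at 76.3 and 82.7 CPM, and NOP58, a C/D core protein, at 162 and 172 CPM). These are 18.8% of the list, and its median log2 fold change was 0.03. NOP56, a C/D core protein with the highest level of the list, was at 451 CPM after knockdown and 448 CPM in controls and not called. Of the 18 nonsense-mediated decay factors, 5 were higher and 4 lower (50%, against 52.1% of all tested genes), with a median of 0.03. The helicase UPF1 was at 341 CPM after knockdown and 280 CPM in controls, the endonuclease SMG6 at 69.0 and 54.0 CPM, and UPF3B, which links the pathway to exon junctions, at 30.1 and 23.6 CPM.

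The intergenic RNAs held the largest single changes in both directions, with 12 of 98 higher, 22 lower and a median log2 fold change of -0.06. Called were 34.7% of the class, against 52.1% of all tested genes. LINC01279 stood at 6.31, 6.14 and 6.76 CPM after knockdown, against 1.11, 1.32 and 1.64 CPM in controls. The groups lay far apart, at a ratio of 4.71 and a log2 fold change of 1.65 (SE 0.125, limma adjusted p = 1.15e-13). RefSeq lists LINC01279 as a synonym of CCDC80, a coding gene for an extracellular matrix protein, which has its own entry in the table. CCDC80 stood at 102.5, 108.2 and 104.96 CPM after knockdown, against 23.2, 21.5 and 22.0 CPM in controls, a ratio of 4.73. LINC01314 stood at 28.1, 27.1 and 26.7 CPM after knockdown, against 41.5, 44.3 and 47.9 CPM in controls, with no overlap and a log2 fold change of -0.69 (SE 0.056, limma adjusted p = 7.05e-13). RefSeq now lists it as CTXND1, a coding gene.

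LINC00261, an RNA of endoderm and liver transcribed next to FOXA2, was the called intergenic RNA with the highest level among those that rose. It stood at 412, 409 and 408 CPM after knockdown, against 324, 327 and 318 CPM in controls. The libraries of each group lay close together and far from the other group, and the log2 fold change was 0.34 (SE 0.027, limma adjusted p = 3.31e-13). LINC00657, which RefSeq names NORAD and which sequesters PUMILIO proteins, stood at 380, 398 and 372 CPM after knockdown, against 424, 421 and 421 CPM in controls. It was lower in all knockdown libraries by a small amount, at a log2 fold change of -0.14 (SE 0.028, limma adjusted p = 8.28e-05). LINC01419 was at 233, 235 and 240 CPM after knockdown, against 281, 279 and 282 CPM in controls, a ratio of 0.841.

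LINC00870 had the lowest log2 fold change of all members, -1.02 (SE 0.137, limma adjusted p = 7.99e-08). It stood at 2.06, 1.41 and 1.14 CPM after knockdown, against 4.16, 4.04 and 4.07 CPM in controls. LINC01488 stood at 8.75, 6.87 and 9.15 CPM after knockdown, against 14.3, 14.6 and 14.9 CPM in controls, again without overlap (log2 fold change -0.76, SE 0.091, limma adjusted p = 8.55e-09). Its nearest tested coding gene, CCND1 for cyclin D1, was at a log2 fold change of 0.05 and not called. LINC01234 fell to 2.96 CPM, against 5.27 CPM in controls, and LINC01268, which RefSeq names MROCKI, to 2.67 CPM, against 4.29 CPM. LINC01504, LINC01270 and LINC01446 were lower at ratios of 0.653, 0.747 and 0.746. The further rises were LINC00987 (ratio 2.04), LINC00982 (1.68), LINC00936 (1.48), LINC01089 (1.47), LINC01224 (1.40) and LINC00847 (1.37). LINC01578, which RefSeq names CHASERR and which restrains its neighbour Chd2 in mice, stood at 52.1, 52.8 and 51.2 CPM after knockdown, against 44.2, 47.1 and 46.3 CPM in controls. It was higher in every knockdown library at a log2 fold change of 0.18 (SE 0.046, limma adjusted p = 0.00135).

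Single libraries carried some of the smaller rises. LINC00847 lost its call without knockdown replicate 1 (limma adjusted p = 0.0815) or control replicate 2 (log2 fold change 0.24, 0.133), LINC00936 without knockdown replicate 3 (0.066) or control replicate 3 (0.0971), LINC00982 without control replicate 2 (0.34, 0.0604) and the lower LINC01504 without knockdown replicate 2 (0.074). Without a mean-variance trend, LINC00847 and LINC01089 missed the threshold (limma adjusted p = 0.0629 and 0.0684). A pseudocount of 1 compresses low genes: with voom on recovered reads LINC00987 was at 1.00 and LINC00982 at 0.79 in place of 0.61 and 0.52. The intergenic class summed to 1678 ± 4.75 CPM after knockdown and 1711 ± 17.9 CPM in controls (SD, n = 3 each), a ratio of 0.981, or 1.00 without LINC00657.

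The intergenic RNAs were set beside their nearest coding gene, as a description without a test. Of 91 with a nearest tested coding gene, 46 had the same sign of change as that gene. Where the gap was 0, because the genes overlap, 6 of 16 did, where it was above 0 and up to 10000 bases, 18 of 28, and where it was larger, 22 of 47. In the near group 11 of the 28 intergenic RNAs and 17 of the 28 nearest genes were called, against 52.1% of all tested genes. Both genes were called in 10 pairs. In 4 pairs both were higher: LINC00261 with FOXA2 (log2 fold changes 0.34 and 0.16), LINC00982 with PRDM16 (0.52 and 0.57), LINC01224 with ZNF91 (0.44 and 0.41) and LINC01578 with CHD2 (0.18 and 0.11). FOXA2 is a pioneer factor of endoderm and liver, and PRDM16 a zinc finger regulator of chromatin. In 4 pairs both were lower, among them LINC01314 with FAH, the last enzyme of tyrosine breakdown (-0.69 and -0.44), and LINC01268 with MARCKS (-0.53 and -0.07). Also among them was LINC00493 with SEC23B (-0.14 and -0.20), named after its values were seen. RefSeq lists LINC01314 and LINC00493 as coding genes, and members listed so are included in the pair counts. The remaining 2 pairs were opposite: LINC01504 with ZFAND5 (-0.41 and 0.16), and LINC01184 with the sodium, potassium and chloride transporter SLC12A2 (-0.34 and 0.69), a pair chosen after its values were seen. Farther apart, LINC00987 and A2M rose together (0.61 and 0.48), while LINC00870 and RYBP went apart (-1.02 and 0.26).

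The antisense RNAs were the largest class and tilted down, with 15 of 202 higher, 40 lower and a median log2 fold change of -0.10. Called were 27.2% of the class, against 52.1% of all tested genes, of which 25.7% were higher and 26.5% lower. SH3BP5-AS1 had the highest log2 fold change of CPM + 1 in the class and a CPM ratio of 1.78, while the ratio of H1FX-AS1, a gene of low level, was 1.89. SH3BP5-AS1 stood at 29.4, 25.7 and 28.2 CPM after knockdown, against 14.4, 15.5 and 16.9 CPM in controls. The groups did not overlap, and the log2 fold change was 0.79 (SE 0.070, limma adjusted p = 6.75e-12). GATA6-AS1, made next to the gene of the endoderm factor GATA6, stood at 12.3, 12.1 and 10.5 CPM after knockdown, against 7.38, 6.83 and 7.22 CPM in controls. All knockdown libraries were higher, at a log2 fold change of 0.63 (SE 0.092, limma adjusted p = 3.97e-07). Further rises were SNAP25-AS1, ITGA9-AS1, H1FX-AS1, ZNF528-AS1, IQCH-AS1 and HOXA-AS2, at log2 fold changes of 0.46, 0.40, 0.46, 0.46, 0.36 and 0.33.

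HNF4A-AS1, antisense to the gene of the hepatocyte factor HNF4A, had the lowest value of the class. It stood at 0.750, 0.921 and 0.658 CPM after knockdown, against 1.82, 1.81 and 1.79 CPM in controls. The groups were apart (log2 fold change -0.66, SE 0.148, limma adjusted p = 0.000304), while HNF4A itself was at 348 CPM after knockdown and 350 CPM in controls and not called. EGFR-AS1 stood at 7.88, 7.0 and 6.10 CPM after knockdown, against 11.4, 9.96 and 11.7 CPM in controls, with no overlap and a log2 fold change of -0.59 (SE 0.097, limma adjusted p = 3.61e-06). SCOC-AS1, ZBED5-AS1, GMDS-AS1, FBXL19-AS1, DLX6-AS1 and TMEM44-AS1 fell too, at log2 fold changes of -0.64, -0.63, -0.53, -0.52, -0.47 and -0.46.

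At higher level the changes were smaller. LRRC75A-AS1, which RefSeq names SNHG29 and which carries box C/D snoRNAs, had the highest CPM of all members, uncorrected for length. It stood at 537, 532 and 525 CPM after knockdown, against 618, 603 and 604 CPM in controls, lower in each knockdown library at a log2 fold change of -0.19 (SE 0.026, limma adjusted p = 6.94e-08). FGD5-AS1 was at 201 CPM after knockdown and 187 CPM in controls, and OTUD6B-AS1 at 38.3 and 44.0 CPM. OIP5-AS1, the human Cyrano, was at 52.5 and 49.3 CPM and not called, though it passed without knockdown replicate 2 (limma adjusted p = 0.044) or control replicate 2 (0.0451). The class summed to 1904 ± 11.2 CPM after knockdown and 2012 ± 21.9 CPM in controls (SD, n = 3 each), a ratio of 0.946, or 0.978 without LRRC75A-AS1.

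Leaving out libraries ended the call of H1FX-AS1 (limma adjusted p = 0.131 and 0.0531 without knockdown replicates 1 and 3, and 0.0633 without control replicate 3). HOXA-AS2 lost it without knockdown replicates 1 or 2 (limma adjusted p = 0.0515 and 0.0554) or control replicate 2 (0.0975), and ZNF528-AS1 without knockdown replicate 2 (0.0523). ITGA9-AS1 lost its call without any library other than control replicate 2 (0.0538 to 0.147), and FBXL19-AS1 stayed called at -0.35 without knockdown replicate 2. On the scale of voom, which does not add 1 CPM, HNF4A-AS1 was at -1.19, ZBED5-AS1 at -1.02, SCOC-AS1 at -1.01, GMDS-AS1 at -0.93, H1FX-AS1 at 0.84, ZNF528-AS1 at 0.79 and ITGA9-AS1 at 0.74.

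The antisense RNAs were next set beside the genes they are named after. For 167 of them the named gene was tested, and 92 pairs (55.1%) had the same sign. Both genes were called in 29 pairs: 6 with both higher, 14 with both lower, 8 with the antisense RNA lower and its gene higher, and 1 with the antisense RNA higher and its gene lower. The last is CCDC183-AS1 with CCDC183 (log2 fold changes 0.29 and -0.89), named after its values were seen. GATA6-AS1 moved with GATA6, which was at 131 CPM after knockdown and 90.4 CPM in controls (log2 fold change 0.53). SH3BP5-AS1 moved with SH3BP5 (0.79 and 0.48) and ZNF528-AS1 with ZNF528 (0.46 and 0.29). SCOC-AS1 fell with SCOC (-0.64 and -0.30) and GMDS-AS1 with GMDS, an enzyme of GDP-fucose synthesis (-0.53 and -0.20). EGFR-AS1 went against EGFR, the epidermal growth factor receptor gene, which was at 229 CPM after knockdown and 155 CPM in controls (-0.59 and 0.56). FBXL19-AS1 and FBXL19 (-0.52 and 0.48) and TMEM44-AS1 and TMEM44 (-0.46 and 0.76) were likewise opposite.

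The pairs were then split by their arrangement on the genome, again without a test. With start sites within 1000 bases of each other in GENCODE 29, 72 of 123 pairs had the same sign, and the 20 pairs called in both genes were 3 with both higher, 12 with both lower and 5 with the antisense RNA lower and its gene higher. With start sites farther apart, 20 of 42 pairs had the same sign, and the 9 called pairs were 3, 2 and 3, with CCDC183-AS1 as the remaining one. Called in all were 32 of 123 antisense RNAs and 80 of 123 genes with near starts. With far starts they were 14 of 42 and 21 of 42, and over all tested genes the share was 52.1%. Across pairs Pearson's r of the log2 fold changes was 0.31 for near starts and -0.06 for far starts, as a description over genes that share the same 6 libraries. Where antisense RNA and gene shared no exon bases r was 0.28 over 62 pairs, and where they shared some it was 0.12 over 103 pairs. Of these 62 pairs 54 had near starts, so the splits by exon sharing and by start distance overlap. Over the 54 pairs r was 0.31, as over all pairs with near starts. Whether reads were counted by strand is not given in the sources used here, so reads from overlapping exons of a pair cannot be told apart. Of the called pairs named above, ZNF528-AS1, SCOC-AS1 and GMDS-AS1 share no exon bases with their gene, while GATA6-AS1, SH3BP5-AS1, EGFR-AS1, FBXL19-AS1 and TMEM44-AS1 share some.

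**Figure D5:**
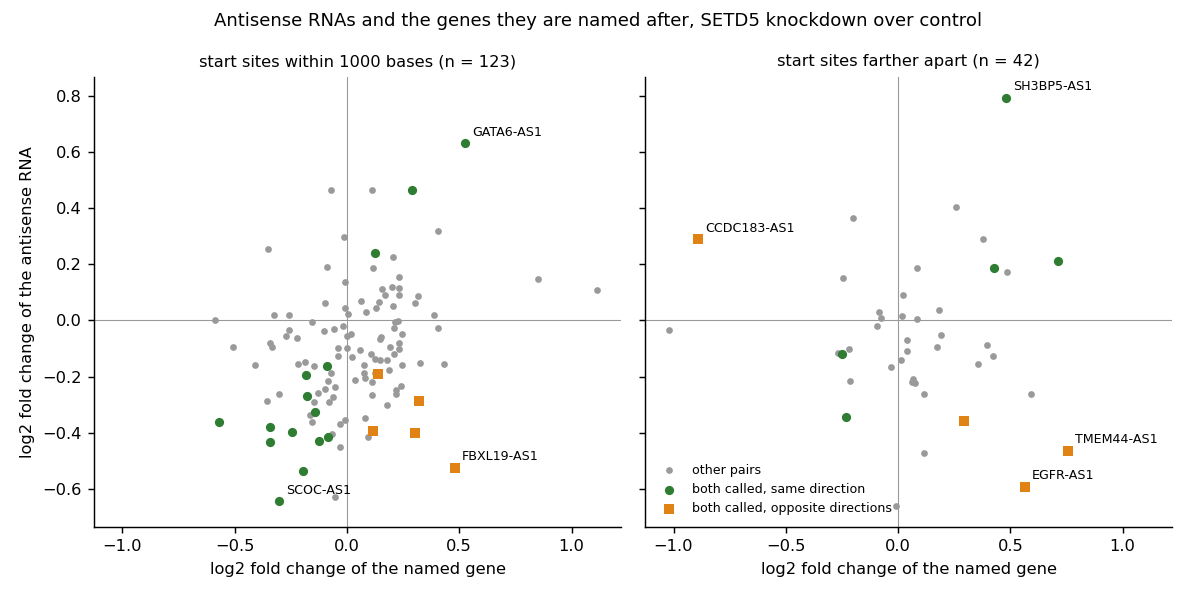
Log2 fold change, SETD5 knockdown over control, of each antisense RNA (vertical) and of the gene it is named after (horizontal), split by the distance between their start sites; green points were called in both genes in the same direction and orange squares in opposite directions. With near starts 15 called pairs share a direction and 5 do not; with far starts 5 share it and 4 do not.

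Many short-lived transcripts made upstream of or antisense to genes are cleared by the nuclear exosome. Of 22 tested exosome subunits and adaptors, 4 were higher and 7 lower (50%, against 52.1% of all tested genes), with a median log2 fold change of -0.05. C1D, a cofactor of the nuclear exosome, fell to 26.8 CPM, against 48.5 CPM in controls. RBM7, which brings the exosome to young transcripts, was at 29.1 and 23.6 CPM, EXOSC3, a core subunit, at 73.9 and 64.9 CPM, and SRRT, with the highest level of the list, at 261 and 252 CPM and not called.

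None of the 3 intronic RNAs passed in limma or voom, 0 had an unadjusted p under 0.05, and the libraries of each overlapped between groups. Of all tested genes, 52.1% were called in limma, and for 57.3% the groups did not overlap. The share of all genes called was 23.5% between 1 and 2 CPM and 35.0% between 2 and 5 CPM, so 0 of 3 says little. NPTN-IT1 was at 2.44, 1.41 and 2.27 CPM after knockdown, against 2.22, 2.37 and 2.93 CPM in controls. N4BP2L2-IT2 averaged 0.939 CPM after knockdown and 1.32 CPM in controls, and HS1BP3-IT1 1.65 and 1.70 CPM. At this level a change had to be large to be called, since the SE of NPTN-IT1 was 0.144 on the log2 scale.

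What the members share beyond their names was described from annotation. All 328 matched a RefSeq gene, 254 by symbol and 74 by synonym. RefSeq classes 309 of them as long noncoding RNA, 14 as protein-coding, 3 as transcribed pseudogenes and 2 as antisense RNA. Of the 14 coding ones, 2 were higher and 3 lower (35.7%, against 52.1% of all tested genes). The 309 long noncoding RNAs held 31 higher and 66 lower (31.4%), and the 3 transcribed pseudogenes 1 and 1. RefSeq now names 33 antisense members as divergent transcripts of their neighbour, of which 1 was higher and 7 lower (24.2%). By GENCODE 29, which held 318 members, 164 shared no exon bases with another gene, with 12 higher and 43 lower, and 154 shared some, with 20 higher and 27 lower. The shares called were 33.5% and 30.5%, and the medians were -0.11 and -0.08. The longest transcript had a median of 2908 bases in members called higher, 2300 in those called lower and 2212 in the rest, and the median number of exons was 6.5, 4.5 and 4.

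The word GCACCT, which earlier results of these data linked to lower messages, was searched on the transcript strand of the longest GENCODE 29 transcript. It was present in 163 members, with 18 higher, 34 lower (31.9% called) and a median log2 fold change of -0.10. It was absent from 155, with 14 higher, 36 lower (32.3% called) and a median of -0.09. Members with the word had longer transcripts, with a median of 2608 bases against 1983. Over all tested genes with a transcript, 7815 held it (54.9% called, median -0.01) and 4814 did not (48.9% called, median 0.02). Their median transcript lengths were 4283 and 2769 bases. Because the word comes from these same data, this comparison is no separate support for the link.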

How the data were processed

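Poly(A)-selected stranded RNA sequencing of 3 SETD5 knockdown and 3 control Huh7 libraries was analysed. The authors deposited 1 table of 14200 genes in log2 units, named as normalized CPM. The deposited values turned back into whole multiples of a fixed step once 1 was subtracted from 2 to their power, with 100% of values within 0.01 of a whole read, so they are log2(CPM + 1). Per the submitters' processing notes, STAR 2.5.1 and R 3.3.0 were used and the builds hg19 and mm10 are listed without a role; the sources used here give neither the counting, its use of strand nor the annotation. Coordinates in the text are RefSeq's, on GRCh38.p14.

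Two-sided tests were run with limma 3.58.1 (R 4.3.3; functions lmFit and eBayes, trend on; group the only term) on the 12865 genes averaging 1 CPM or more. Benjamini-Hochberg adjustment ran over all of them, and 0.05 was the threshold. Because 1 CPM is added before the logarithm, fold changes of low genes are understated. Intervals are 95%. Depth was 14038447 to 17095417 recovered reads, and counting precision covers counting error only. The reads between libraries of a group differed by a chi-square of 1.25 to 2.10 per gene, and between groups by 19.7 to 24.1. Each library was therefore counted once, which does not show that it came from a separate culture. The script was tested on simulated data.

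Members and gene lists were chosen with earlier results of these data known. Named in the text are MALAT1, NEAT1 and GAS5, all called members of a class with at most 12 calls, otherwise the 8 highest and 8 lowest called ones, the 4 members of each class with the highest CPM, the gene named before -AS, and from each list the 3 called genes with the largest change and the one with the highest CPM. Named besides, with values seen, are nearest coding genes, genes sharing exons or a RefSeq name with a member, MIR503HG, and those marked in the text. Lists are given by counts and medians, with no test. Alternatives were other pseudocounts, filters and scalings, no trend, voom on recovered reads, a replicate block, each library left out, and a 1.2-fold null (TREAT). Members sharing no exon bases, and members without GCACCT, were counted as alternatives chosen after seeing the data.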

Additional observations from a re-analysis of the deposited data

How the results depend on the processing

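Counts of called members in limma were 34 higher and 70 lower. Leaving out each library in turn gave 27 to 37 higher and 53 to 62 lower, and 5981 to 6324 of all tested genes in place of 6706. With a minimum of 5 CPM, which leaves 122 members, 23 were higher and 36 lower, and 6110 of 10694 tested genes were called. Against a null of 1.2-fold (TREAT), 5 were higher, 9 lower, and 1466 of all tested genes were called. Restricting the members, after the data had been seen, to the 164 sharing no exon bases gave 12 higher and 43 lower, and to the 155 without GCACCT 14 higher and 36 lower; the cause of the changed split was not tested. Other pseudocounts, no filter, median centring, quantile normalization, no trend and voom gave 31 to 34 higher and 65 to 70 lower. The summed ratio without the member of highest CPM was 1.004 for intergenic, 0.978 for antisense, 0.982 for microRNA host and 1.64 for nuclear RNAs; leaving out each library gave 0.976 to 0.986, 0.942 to 0.952, 0.826 to 0.858 and 1.14 to 1.27. Of all calls on members, 52 (18 higher and 34 lower) passed in every one of 14 alternatives, TREAT and the 5 CPM minimum aside. No called result named in the text changed sign; NEAT1 and HS1BP3-IT1, which were not called, did without single libraries.

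Replicate numbers did not pair the libraries (correlations of deviations -0.011, 0.054 and 0.042). With the replicate number as a block, 34 members were higher and 72 lower, 103 of the calls were kept, 6898 of all tested genes were called, and MIR17HG passed (limma adjusted p = 0.0292).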

Other observations

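A list of 12 genes held coding neighbours of H19 and MEG3, and also CTCF, IGF2BP1, IGF2BP2 and IGF2BP3, which are not their neighbours. Of its 9 genes that were in the table and tested, 4 were higher in limma (IGF2, CDKN1C, IGF2BP1 and CTCF) and 2 lower. That is 66.7%, against 52.1% of all tested genes, and the median log2 fold change was 0.09. DLK1, the growth-regulating neighbour of MEG3, stood at 58.1, 51.1 and 54.7 CPM after knockdown, against 104.9, 93.7 and 103.6 CPM in controls, a ratio of 0.542. IGF2, the growth factor gene next to H19, averaged 28.9 CPM after knockdown and 25.3 CPM in controls, with overlapping libraries. CDKN1C, a cyclin-dependent kinase inhibitor of the same imprinted region, averaged 7.36 and 2.56 CPM, SLC22A18 2.88 and 3.83 CPM, and the RNA-binding protein IGF2BP1 394 and 350 CPM.

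Of 15 tested p53 pathway genes 5 were higher and 2 lower in limma (46.7%, against 52.1% of all tested genes), with a median of 0.03. TP53INP1 averaged 156 CPM after knockdown and 80.7 CPM in controls. CDKN1A, the p21 inhibitor, averaged 1.98 and 3.06 CPM, BBC3, which encodes PUMA, 4.96 and 3.76 CPM, and TNFRSF10B, with the highest level of the list, 161 and 164 CPM without a call.

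Knockdown replicate 2 was the lowest of the knockdown libraries for all 5 nuclear and intronic members. Over all members it was the lowest for 123, against 108 for replicate 1 and 97 for replicate 3, and over all tested genes for 4245, against 4259 and 4361.

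Of the 160 candidates below 1 CPM, 6 were higher and 12 lower in a limma fit without the level filter, with a median log2 fold change of -0.02. That fit called 6854 of all 14200 genes, which are of every level.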
